A study of Mus musculus with 8 samples.

Results

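Epithelia that face the outside world release proteins that bind microbes, withhold their nutrients, carry antibodies and hold proteases in check, and 7 genes of this kind were read in cells of mouse pancreatic ductal adenocarcinoma. They are Dmbt1, Lcn2, Pglyrp1, Sftpd, Pigr, Slpi and Pzp, and each of them named a single row among the 27775 gene rows of either count table. The 7 were selected on their measured levels in these same cells and tumors, so every level and every difference between clusters, cell groups or tumors given for them is a description and carries no test. The cells came from 2 tumors of untreated KPC mice, 1 of medium size and 1 of large size. In this strain, per the study's methods, conditional tumor alleles, LSL-Trp53R172H/+ among them, are switched on by Pdx-1-Cre, that is by Cre recombinase under the promoter of Pdx1, which is active in the developing pancreas and also in part of the stomach and duodenum. Both tumors carried all of these alleles, there was no control tissue, and the labels give 4 technical replicates of each tumor that are pooled in 1 table, so each tumor size is 1 sample.

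The members act at different steps of mucosal defense. Dmbt1 encodes a large mucin-like glycoprotein of scavenger receptor cysteine-rich domains that agglutinates bacteria, and Sftpd encodes surfactant protein D, a collectin that binds microbial sugars. Pglyrp1 encodes a peptidoglycan recognition protein that kills bacteria and is also stored in granules of neutrophils. Lcn2 encodes lipocalin 2, which captures bacterial iron carriers and is likewise a granule protein of neutrophils. Pigr encodes the polymeric immunoglobulin receptor, which carries IgA and IgM through epithelial cells and is shed with them as secretory component. Slpi encodes secretory leukocyte protease inhibitor, which blocks neutrophil elastase and cathepsin G, and Pzp encodes a broad protease trap of the alpha-2-macroglobulin family. In the pancreas, ducts carry a secretion toward the gut, and proteins such as lipocalin 2 are known to be made by ductal cancer cells as well as by the immune cells around them.

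In the GENCODE M21 annotation of GRCm38 all of them are protein-coding genes and most lie far apart. Dmbt1 lies at chr7:131032053-131121630 on the plus strand with up to 48 exons, Pglyrp1 at chr7:18871331-18890459 on the plus strand, Lcn2 at chr2:32384633-32388252 on the minus strand and Slpi at chr2:164354070-164389095 on the minus strand. Sftpd lies at chr14:41172214-41185149 on the minus strand, Pigr at chr1:130826684-130852249 on the plus strand and Pzp at chr6:128483567-128526720 on the minus strand. RefSeq promoter windows of GRCm38.p6, from 250 bases before to 50 bases after the start of a transcript, matched 5 of the 7 genes, all but Dmbt1 and Sftpd. The 250 bases before the start are shown 5′ to 3′ for Pglyrp1 (chr7:18884440-18884689, plus strand) and Pigr (chr1:130826434-130826683, plus strand), which were high in the same clusters of the medium-size tumor, and for Slpi (chr2:164356508-164356757, minus strand), which was highest outside the epithelial-like cells. The capitals mark a GC box (CCCGCCC, on either strand) or an E-box (CACGTG).
Pglyrp1: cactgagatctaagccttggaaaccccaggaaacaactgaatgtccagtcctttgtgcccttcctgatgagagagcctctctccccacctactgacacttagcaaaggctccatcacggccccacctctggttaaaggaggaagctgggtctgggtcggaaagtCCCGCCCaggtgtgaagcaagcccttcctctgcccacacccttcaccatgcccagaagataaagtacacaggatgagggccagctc
Pigr: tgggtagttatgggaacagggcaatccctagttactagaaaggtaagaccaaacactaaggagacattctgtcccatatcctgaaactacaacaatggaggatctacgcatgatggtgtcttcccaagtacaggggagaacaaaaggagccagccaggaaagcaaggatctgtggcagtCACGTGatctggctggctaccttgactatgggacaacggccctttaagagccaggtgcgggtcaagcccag
Slpi: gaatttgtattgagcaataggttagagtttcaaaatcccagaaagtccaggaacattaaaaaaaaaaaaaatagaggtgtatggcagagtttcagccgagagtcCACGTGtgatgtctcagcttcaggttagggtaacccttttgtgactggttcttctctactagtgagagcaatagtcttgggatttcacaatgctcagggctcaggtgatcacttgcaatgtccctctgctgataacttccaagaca
The E-box letters stood 71 bases before the start of Pigr and 146 bases before that of Slpi, and 7.15% of the 32851 RefSeq promoters of this length hold them. The GC box letters stood 86 bases before the start of Pglyrp1 and 95 bases before that of Lcn2, and 25.6% of promoters hold them. Of 6 other motifs read on both strands, an NF-kB motif (GGNNTTTCC, in 5.82% of promoters) was found in Pglyrp1 and a STAT motif (TTCNNNGAA, 8.30%) in Pigr. A C/EBP motif (TTNCNNAA, 40.7%) was found in Lcn2, Slpi and Pzp and an ETS motif (AGGAAG, 35.4%) in Lcn2, Pglyrp1 and Pigr. In Pigr the STAT and ETS letters began at bases 40 and 39 after the start, outside the 250 bases shown. The letters of an AP-1 motif (TGANTCA, 7.81%) and a TATA box (TATAAA, 13.6%) were found in none of the 5 windows, and no motif searched was shared by all of them.

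The medium-size tumor gave 20301669 unique molecular identifiers (UMIs, tags that count captured mRNA molecules) in 2812 cells, with a median of 5456.5 per cell. The large-size tumor gave 2239012 UMIs in 1533 cells, with a median of 1037. A cluster of cells was called epithelial-like or given another name from markers of that cell type. In the medium-size tumor 8 of 14 clusters with 2331 cells were epithelial-like and taken as carcinoma states, and in the large-size tumor 7 of 10 clusters with 1219 cells. Medium-size cluster 7 and large-size cluster 1 had only 3 of the 11 epithelial markers. Scrublet called 0 and 9 cells as doublets and none was removed. The tables shared 5 cell barcodes, and neither had a UMI of a mitochondrial gene (0 UMIs). Levels are given as CPM, the UMIs of a gene in a group of cells per 1000000 UMIs of that group, with exact Poisson intervals (95%) that cover counting error and nothing else. Ratios carry exact 95% conditional binomial intervals of the same kind. The 3′ chemistry counts transcript ends, so CPM is not scaled to gene length. A gene with 0 UMIs may be at up to the level that 3 UMIs would give.

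Over the whole medium-size tumor, Pglyrp1 had 28782 UMIs, Dmbt1 21178, Lcn2 8866, Slpi 6616, Pigr 1287, Sftpd 1253 and Pzp 276. The carcinoma states that held them were few. Cluster 8 (227 cells, led by Dmbt1, Lcn2 and Sftpd) and cluster 4 (292 cells, led by Tff3, Ly6d and Reg1) made up 22.3% of the epithelial-like cells and 16.3% of their UMIs. They held 88.8% of the epithelial-like UMIs of Pzp, 75.4% of Pigr, 73.7% of Dmbt1, 69.4% of Sftpd, 65.0% of Lcn2 and 56.0% of Pglyrp1, and 21.3% of those of Slpi. Without the 11 epithelial-like cells that had at least 20 Slpi UMIs, none of which lay in clusters 4 or 8, the share of Slpi was 35.9%. Clusters 2, 3, 5 and 7 together had 57.6% of the UMIs of these cells and only 4.83% to 16.5% of the UMIs of the same 6 genes, beside 57.5% of those of Slpi, or 34.8% without those 11 cells. The 7 genes summed were at 14266 CPM in cluster 8, at 11777 CPM in cluster 4 and at 656 CPM in cluster 5 (led by Yap1, Birc2 and Dcun1d5).

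**Figure D1:**
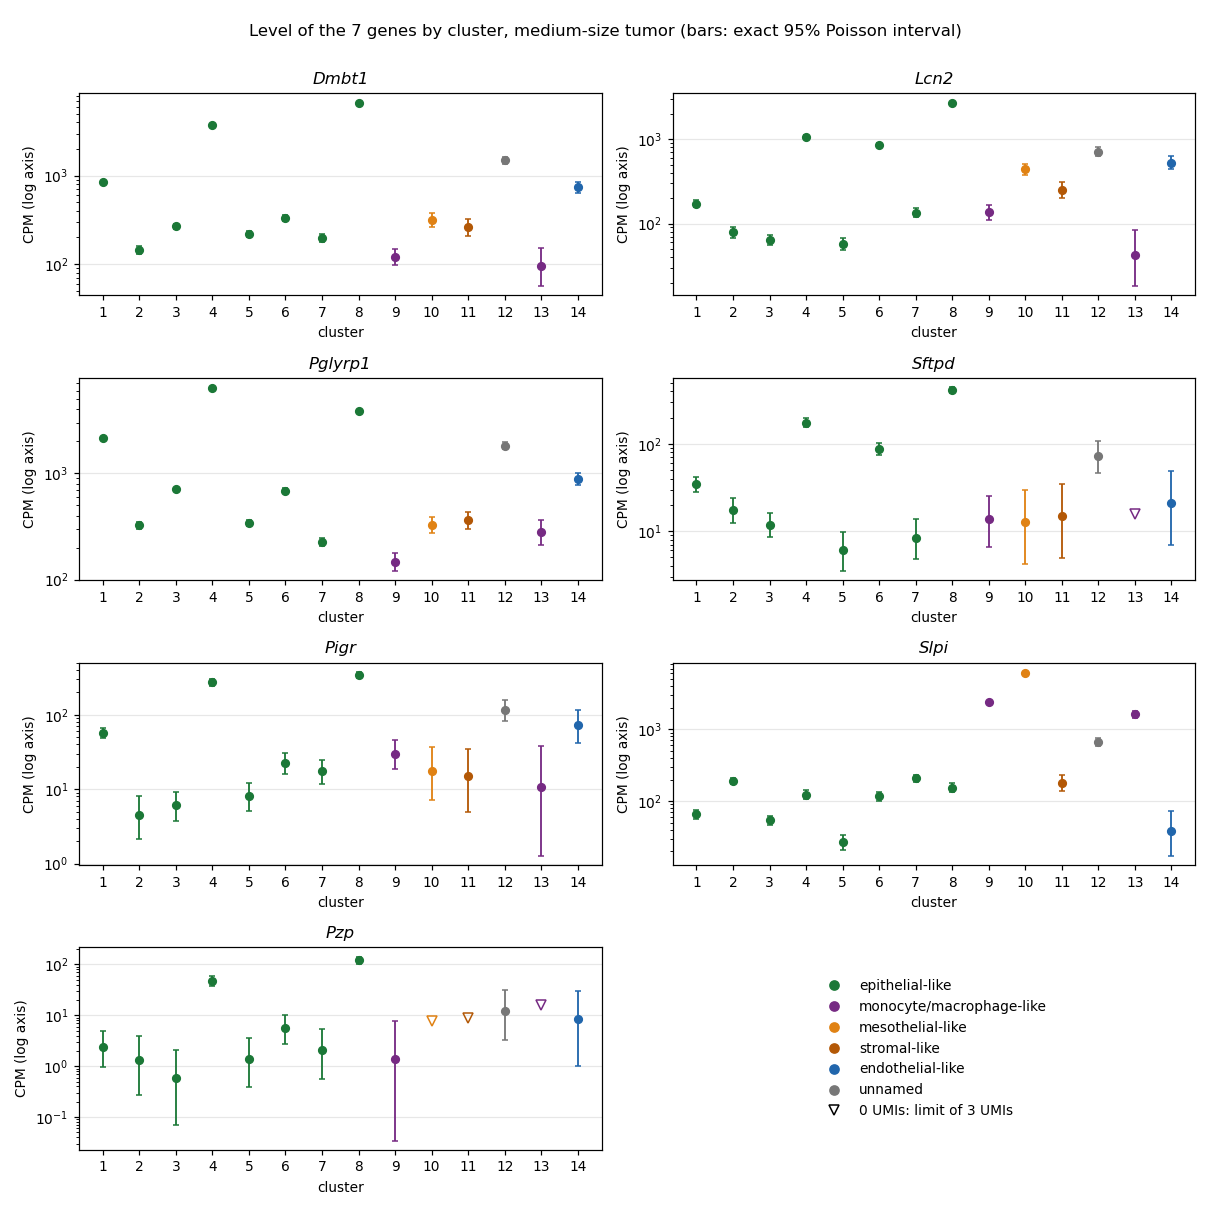
Level of each of the 7 genes in the 14 clusters of the medium-size tumor, in CPM on a log axis, with exact 95% Poisson intervals as bars. Dmbt1, Lcn2, Sftpd, Pigr and Pzp were highest in cluster 8 and Pglyrp1 in cluster 4, while Slpi was highest in the mesothelial-like cluster 10 at 6061 CPM. Open triangles stand at the limit of 3 UMIs where no UMI was counted.

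Dmbt1, which agglutinates bacteria, was at 6688 CPM (95% interval 6549 to 6828) in cluster 8 and at 3714 CPM in cluster 4, a ratio of 1.80 (1.74 to 1.86). In the gastrokine-led cluster 1 (452 cells, led by Gkn1, Gkn3 and Gkn2) it was at 841 CPM. The remaining epithelial-like clusters lay between 332 CPM in cluster 6 (led by Krt17, Cldn4 and Slco2a1) and 144 CPM in cluster 2 (led by Mcpt8, Cldn6 and Fam213a), with overlapping intervals in clusters 5 and 7. Dmbt1 thus spanned 46.3 times (41.5 to 51.9) from its lowest to its highest carcinoma state. A cell of cluster 8 had a median of 29 Dmbt1 UMIs and a cell of cluster 4 a median of 15, while the median in cluster 7 (led by Inhba, Bmp2 and Piezo2) was 0.

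Sftpd, the collectin known best from the lung, was at 416 CPM (382 to 452) in cluster 8, 175 CPM in cluster 4 and 87.2 CPM in cluster 6. The next epithelial-like cluster was cluster 1 at 34.3 CPM, and the lowest was cluster 5 at 6.02 CPM on 17 UMIs. Nkx2-1, a factor that drives surfactant genes in the lung, had 0 UMIs in both tumors. The intervals of Sftpd in clusters 2, 3 and 7 overlapped with those of their neighbors in the order of levels.

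Pglyrp1 had a different order from Dmbt1 among clusters 4, 8 and 1. It was at 6369 CPM in cluster 4, 3866 CPM in cluster 8 and 2160 CPM in cluster 1, so that cluster 4 was above cluster 8 by 1.65 times (1.59 to 1.70). In cluster 1 there were 2.57 Pglyrp1 UMIs for every Dmbt1 UMI and in cluster 8 there were 0.578. Pglyrp1 was also the most widespread member. With every cell thinned to 2500 UMIs, it was seen in 99.3% of the cells of cluster 4, 91.8% of cluster 1 and 54.3% of the cycling cluster 3 (led by Ube2c, Birc5 and Cenpf). Its lowest state was cluster 7 at 226 CPM, 28.2 times (25.6 to 31.1) below cluster 4, and the intervals of clusters 3 and 6 overlapped, as did those of clusters 2 and 5.

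Lcn2, which withholds iron from bacteria, was also high in the Krt17-led state. It was at 2674 CPM (2587 to 2764) in cluster 8, 1075 CPM in cluster 4 and 858 CPM in cluster 6, and then dropped to 173 CPM in cluster 1. Between clusters 4 and 6 the ratio of Lcn2 was only 1.25 (1.17 to 1.34), against 11.2 (10.3 to 12.2) for Dmbt1, 12.1 (8.77 to 17.2) for Pigr and 2.00 (1.64 to 2.45) for Sftpd. Cluster 6 accordingly had 2.58 Lcn2 UMIs per Dmbt1 UMI, where all epithelial-like cells together had 0.403 and cluster 1 had 0.206. The lowest state was again cluster 5, at 57.3 CPM, and the interval there overlapped with that of cluster 3 at 64.6 CPM.

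Pigr, the antibody carrier, was at 347 CPM in cluster 8 and 273 CPM in cluster 4, a ratio of 1.27 (1.11 to 1.45). It was at 56.8 CPM in cluster 1 and between 4.47 and 22.5 CPM in the other 5 epithelial-like clusters, where the value of cluster 7 (17.4 CPM) rested for 54.5% on 1 cell with 18 of its 33 UMIs. Pzp, the protease trap, was the rarest member. It was at 122 CPM in cluster 8 and 47.6 CPM in cluster 4, and its 6 other epithelial-like clusters lay between 0.577 CPM, on 2 UMIs, and 5.63 CPM, on 10 UMIs, each overlapping with its neighbor in the order of levels. Cluster 8 was above cluster 4 by 2.57 times (1.94 to 3.41) for Pzp.

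The order of Slpi over the carcinoma states turned on a few cells very rich in it. Over all cells of the epithelial-like clusters it was highest in cluster 7 at 207 CPM and in cluster 2 at 192 CPM, whose intervals overlapped, and lowest in cluster 5 at 26.9 CPM. The ratio of highest to lowest was 7.71 (6.02 to 9.99). Of the 11 epithelial-like cells with at least 20 Slpi UMIs, 4 lay in cluster 7, 3 in cluster 2, 2 in cluster 1 and 2 in cluster 3, and the other clusters had 0. In cluster 2, 1 cell with 233 Slpi UMIs among its 3373 UMIs held 54.2% of the Slpi of the cluster. Without the 11 cells, as tried after the values were seen, Slpi was highest in clusters 8, 4 and 6, at 154, 124 and 117 CPM, whose richest cells held 8, 15 and 18 UMIs. It was then at 52.2 CPM in cluster 7, 41.4 CPM in cluster 1, 38.6 CPM in clusters 2 and 3 and 26.9 CPM in cluster 5. So apart from those 11 cells Slpi was highest in the clusters that were highest in Lcn2 and Sftpd.

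By the rule that a highest state at least 10 times above the lowest (with 10 CPM added to both) counts as a wide range, 6 of the 7 genes had a wide range in the medium-size tumor, all but Slpi. Of the 10678 genes with enough UMIs, 1.57% had such a range. The clusters were made from the same cells and genes, and all 7 genes were among the variable genes that made them, so nothing is read from this share. With the 7 genes left out of the variable genes, the count of genes with a wide range was 6 as well.

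Outside the carcinoma states of the medium-size tumor, the secreted binders of microbes were lower and Slpi was much higher. Dmbt1 was at 1116 CPM in epithelial-like cells and 443 CPM in the 481 others, a ratio of 2.52 (2.36 to 2.69). The ratio was 2.77 (2.62 to 2.94) for Pglyrp1, 3.00 (2.25 to 4.08) for Sftpd, 4.69 (2.24 to 11.8) for Pzp, with 7 UMIs in the other cells, 1.60 (1.30 to 2.01) for Pigr and 1.38 (1.28 to 1.49) for Lcn2. Slpi was at 105 CPM in epithelial-like cells and 2139 CPM in the others, a ratio of 0.0489 (0.0464 to 0.0516). With 10 CPM added to both values, 3 of the 7 genes (Dmbt1, Pglyrp1 and Sftpd) were at least 2-fold higher in epithelial-like cells, where 3.78% of 11205 genes were, and 1 (Slpi) was at least 2-fold lower, where 7.6% of genes were. The first count depended on how cells were classed. It was 6 at a clustering resolution of 1.2, with each cell classed from its own markers 6 as well. It was 5 without the 2 clusters of other cells that also held epithelial markers, which was tried after the values were seen.

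The other cells were of several types, and the members were not spread over them alike. In the monocyte/macrophage-like cells (clusters 9 and 13, 238 cells), Dmbt1 was at 115 CPM, which is 10.3% of its epithelial-like level, and Pglyrp1 at 11.5%. The 11 epithelial markers were at 4.96% to 10.7% of their epithelial-like level in the same cells, with a median of 6.47%. Lcn2 was at 26.1% and Pigr at 39.4%. For Pigr this came largely from 1 cell of cluster 9, which held 17 Pigr, 36 Dmbt1 and 42 Pglyrp1 UMIs among its 7211 UMIs, and without it the Pigr level of that cluster went from 30.1 to 6.90 CPM. Whether free RNA in the droplets or pairs of cells gave these UMIs was not tested.

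In the other non-epithelial groups of this tumor Lcn2 stood out from Dmbt1. The mesothelial-like cluster 10 (74 cells) had Lcn2 at 439 CPM, 97.6% of the epithelial-like level, while Dmbt1 was at 28.1% and the epithelial markers at 14.7% to 48.3%. The stromal-like cluster 11 (67 cells) had Lcn2 at 253 CPM, or 56.2%, while Dmbt1 was at 23.2% and the markers at 6.38% to 27.3%. There were 1.40 Lcn2 UMIs per Dmbt1 UMI in the mesothelial-like cells and 0.977 in the stromal-like cells. In cluster 11 a single cell held 38.1% of the Lcn2 UMIs, and the level without it was 159 CPM. The endothelial-like cluster 14 (38 cells) and the unnamed cluster 12 (64 cells, with 10 of 11 epithelial and 8 of 11 macrophage markers) held the members at varied levels. In cluster 14 they were at 31.9% (Sftpd, on 5 UMIs) to 117% (Lcn2) of the epithelial-like level, and in cluster 12 at 82.0% (Pzp, on 4 UMIs) to 175% (Pigr), with Slpi at 641%. Dmbt1 was at 734 and 1496 CPM, and the epithelial markers were at 33.0% to 58.2% and at 54.2% to 96.5% of their epithelial-like levels. In cluster 14 a single cell held 37.9% of the Lcn2 UMIs. Without it Lcn2 was at 339 CPM there, below the 450 CPM of the epithelial-like cells. The part of epithelial RNA in these values was not tested.

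Slpi was the 1 member whose main sources were not epithelial-like. In the medium-size tumor it was at 6061 CPM (5820 to 6310) in the mesothelial-like cells, 2398 CPM in the macrophage cluster 9 and 1615 CPM in the macrophage cluster 13. The intervals of these clusters did not overlap, but they cover counting error and not the spread between cells. In cluster 13 a single cell held 35.4% of the Slpi UMIs, and the level without it was 1079 CPM. Slpi was at 181 CPM in the stromal-like cells and 38.2 CPM in the endothelial-like cells. The high values came from a minority of very rich cells. Among all 2812 cells, 62 had at least 20 Slpi UMIs, of which 30 were macrophage-like, 17 mesothelial-like, 11 epithelial-like and 4 in the unnamed cluster. These cells held 90.8% of the Slpi of the mesothelial-like cells, 78.3% of that of the macrophage-like cells and 40.7% of that of the epithelial-like cells.

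Markers of several cell types were read in the Slpi-rich cells. All 30 of the macrophage-like cells had UMIs of the macrophage gene Lyz2 and of Saa3, an acute phase gene. Among them 0 had Dcn, a gene of fibroblasts and mesothelium, and 2 had Epcam. Lyz2 was at 19317 CPM over macrophage cluster 9, and how many of the other macrophage-like cells had Lyz2 or Saa3 was not read. All 17 of the mesothelial-like cells had Dcn, 12 had Saa3, 9 had Lyz2 and 4 had Epcam. Of the 11 rich epithelial-like cells 8 had Epcam, 7 had Lyz2, 5 had Saa3 and 0 had Dcn. Msln, which encodes mesothelin, was in 16 of the 17 and in 7 of the 11, but also in 1753 of all 2812 cells. The part of free RNA or pairs of cells in this was not tested. Over the 481 other cells, thinned to 2500 UMIs, the gene whose counts ran most closely with Slpi was Saa3 (Spearman's rho 0.507 among 620 genes), followed by the metallothioneins Mt2 (0.371) and Mt1 (0.369). In the 314 other cells of the large-size tumor, Saa3 (0.405) and Mt2 (0.270) again came first of 433 genes. The levels of Slpi in these cells had been seen before this was looked up, and the cells share a library and a depth, so these are descriptions.

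The share of cells with at least 1 UMI of a member was read as well. With all cells of the medium-size tumor thinned to 2500 UMIs, Pglyrp1 was seen in 63.4% of epithelial-like cells, Dmbt1 in 48.5% (46.4% to 50.5%), Lcn2 in 25.7%, Pigr in 13.3%, Slpi and Sftpd in 13.0% each, and Pzp in 4.25%. Without thinning the shares were 76.6% for Pglyrp1, 66.3% for Dmbt1, 36.1% for Lcn2, 27.7% for Slpi, 20.8% for Sftpd, 19.5% for Pigr and 7.89% for Pzp. In the macrophage-like cells, set beside them because Dmbt1 is known mainly as an epithelial product, the thinned share was 15.1% for Dmbt1, beside 15.5% for Epcam and 18.9% for Krt19, a pair of epithelial genes, and 12.2% for Lcn2. Pigr was seen in 2.52% and Slpi in 52.1% of these cells. The median depth before thinning was 5980 UMIs in epithelial-like cells and 3854 in the others. In cluster 8 the thinned shares were 97.8% for Pglyrp1, 96.9% for Dmbt1, 76.2% for Lcn2, 54.2% for Pigr, 48.9% for Sftpd, 26.4% for Slpi and 24.7% for Pzp.

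The number of members seen in the same cell was highest in clusters 8 and 4. At 2500 UMIs a cell of cluster 8 had UMIs of a median of 4 of the 7 genes, and 73.1% of its cells had at least 4. In cluster 4 the median was 3 and 47.6% of the cells had at least 4. In cluster 1 the median was 2 and 5.75% had at least 4, while 59.5% of its cells had both Dmbt1 and Pglyrp1. In cluster 7 60.4% of the cells had none of the 7. Over all epithelial-like cells 24.0% had none and 16.3% had at least 4.

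**Figure D2:**
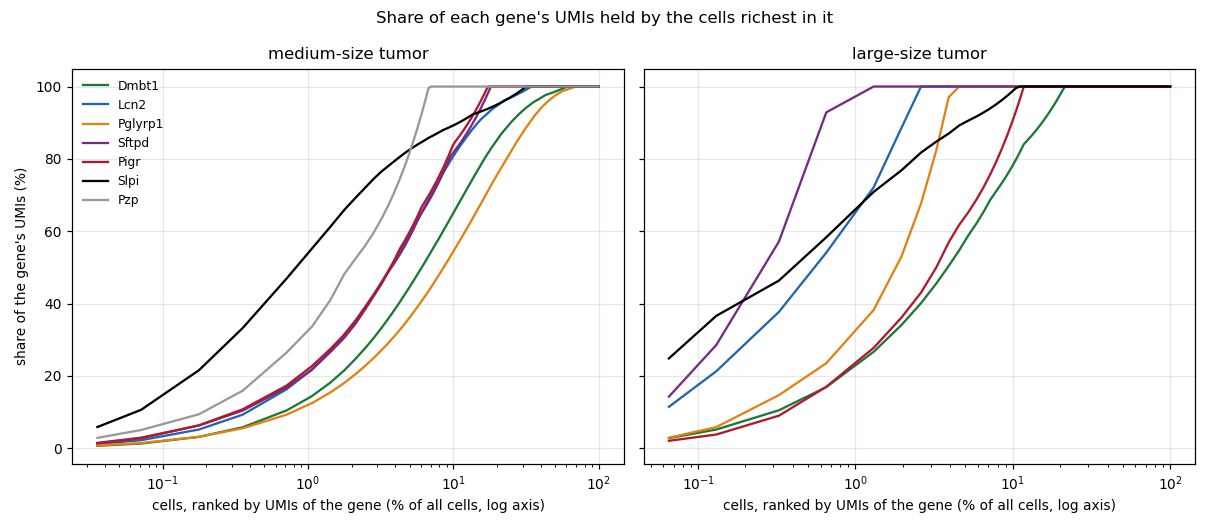
Share of the UMIs of each gene held by the cells richest in it, in the medium-size tumor (left) and the large-size tumor (right), with cells ranked by their UMIs of the gene on a log axis in percent of all cells. The curve of Slpi rises first in the medium-size tumor, where 23 of the 2812 cells held 50 percent of its UMIs against 242 cells for Pglyrp1.

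The cells richest in each gene were counted. In the medium-size tumor, among 2331 epithelial-like cells, 50 percent of the Pglyrp1 UMIs lay in 228 cells, of Dmbt1 in 159, of Pigr in 100, of Sftpd in 99, of Lcn2 in 93, of Pzp in 51 and of Slpi in 25. A gene with few UMIs can fill few cells, and Pzp had only 269 UMIs, Pigr 1196 and Sftpd 1204 in these cells against 27568 of Pglyrp1, so these numbers are not a measure of unevenness between genes of unlike totals. Slpi, with 1894 UMIs, had more than Pigr and Sftpd, and yet 50 percent of its UMIs lay in fewer cells. It was seen in 645 of these cells, against 455 for Pigr and 485 for Sftpd. The richest 234 of these cells held 50.8% of the Pglyrp1 UMIs, 61.5% of those of Dmbt1 and 79.0% of those of Lcn2. The highest single cell had 232 UMIs of Pglyrp1, 148 of Dmbt1, 107 of Lcn2 and 233 of Slpi. In the large-size tumor 7 of all 1533 cells held 50 percent of the Slpi UMIs, and a single stromal-like cell with 222 of them held 24.9%.

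Over the 2331 epithelial-like cells thinned to 2500 UMIs, the 21 pairs of members had Spearman's rho between 0.122 and 0.616, with a median of 0.281. The pair highest in rho was Dmbt1 with Pglyrp1 (0.616), followed by Dmbt1 with Pigr (0.468) and Dmbt1 with Lcn2 (0.444). Lcn2 with Sftpd had 0.412 and Slpi had its highest value with Lcn2 (0.260). All of these cells are from 1 library, so the values describe it and carry no p-value. Within single clusters the medians over the pairs were far lower, between 0.0410 and 0.136. Within cluster 8 the highest values were 0.443 for Lcn2 with Slpi and 0.341 for Dmbt1 with Pglyrp1, and Pglyrp1 with Sftpd was at -0.158. Within cluster 6 Lcn2 ran with Sftpd (0.427) and with Pglyrp1 (0.395).

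**Figure D3:**
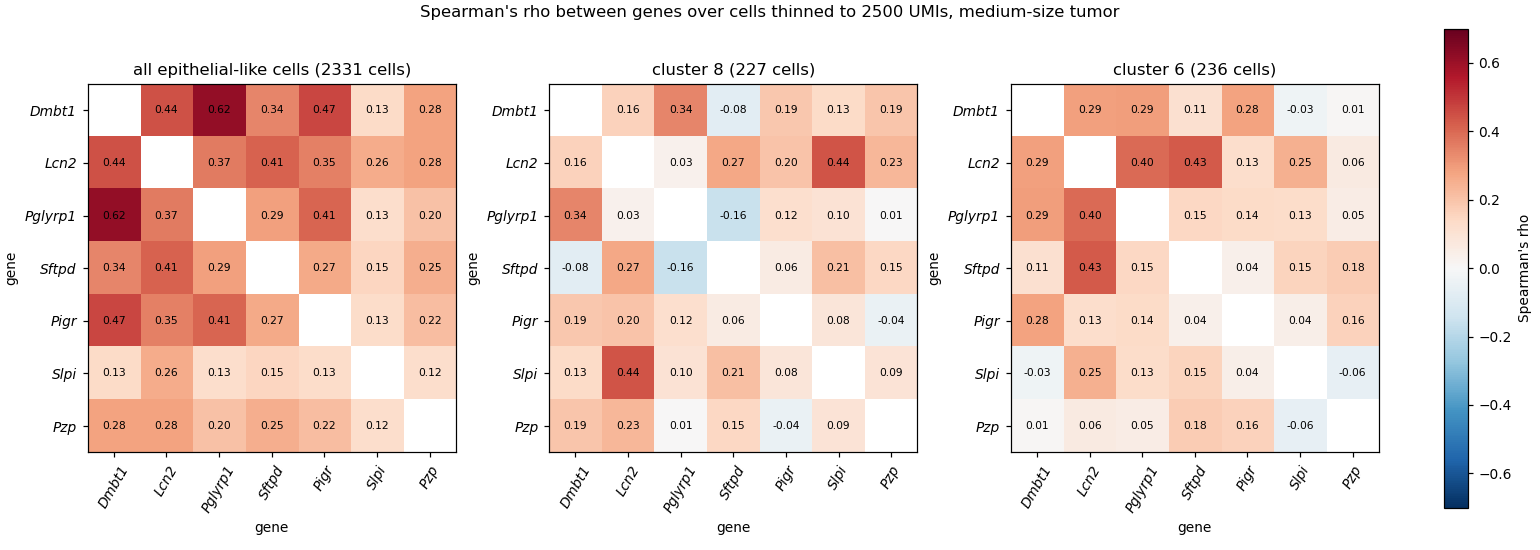
Spearman's rho between the 7 genes (both axes) over cells of the medium-size tumor thinned to 2500 UMIs, in all 2331 epithelial-like cells, in the 227 cells of cluster 8 and in the 236 cells of cluster 6. Dmbt1 with Pglyrp1 has the highest value over all epithelial-like cells (0.616), and Lcn2 with Slpi the highest within cluster 8 (0.443).

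Among 4357 genes with at least 500 UMIs in these cells, the 5 whose counts were most like those of each member were looked up. Ly6d, a GPI-anchored surface protein, was among the 5 for 6 members, all but Pglyrp1, with rho of 0.593 for Dmbt1 and 0.471 for Pigr. Mmp7, which encodes matrilysin, an epithelial protease that cuts matrix and processes defensins, was among the 5 for Lcn2 (0.594), Sftpd (0.399), Pzp (0.282) and Slpi (0.205). Its level was 1834 CPM in cluster 8, 1374 CPM in cluster 4 and 333 CPM in cluster 6, the same order of clusters as for Lcn2 and Sftpd. Pglyrp1 was most like Fxyd3 (0.627), a regulator of the sodium pump, and the glutathione genes Gsta4 (0.607) and Gpx2 (0.580). Reg1, Gsta3 and Gsta4 were among the 5 for Dmbt1, Reg3g and Lrg1 among those for Lcn2, and Reg1 and Reg3g among those for Pigr. Agr2 was a further one for Pglyrp1, Pdzk1ip1 for Sftpd, C3 for Slpi and Lrg1 for Pzp. At the opposite end Lgals1 had the lowest rho with Dmbt1 (-0.518), Pglyrp1 (-0.596), Sftpd (-0.309), Pigr (-0.331) and Pzp (-0.182). The mesenchymal gene Vim was at 61.8 and 42.9 CPM in clusters 4 and 8 and at 1572 and 1570 CPM in clusters 5 and 7.

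The large-size tumor had fewer UMIs of every member, at a lower depth. Over all its cells Pigr was at 129 CPM, against 63.4 CPM in the medium-size tumor, and Slpi at 399 against 326 CPM, while the other 5 were lower there. Dmbt1 had 922 UMIs, Slpi 893, Pigr 288, Pglyrp1 68, Lcn2 61, Sftpd 14 and Pzp 0, which allows Pzp up to 1.34 CPM over all cells. Dmbt1 was at 2285 CPM in cluster 6 (155 cells, led by Tff3, Lgals2 and Muc2, with most of the goblet markers), 917 CPM in cluster 4 (214 cells, led by Papss2, Fabp1 and Guca2b, with most of the enterocyte markers) and 784 CPM in the gastrokine-led cluster 7 (138 cells, led by Gkn2, Gkn3 and Tff1). The ratio of cluster 6 to cluster 4 was 2.49 (2.09 to 2.99), while the intervals of clusters 4 and 7 overlapped. Dmbt1 was at 330 CPM in the Onecut2-led cluster 3 (226 cells) and below 30 CPM in the cycling cluster 5 and in cluster 1 (led by Ggct, Ramp1 and Ank).

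Pigr had the opposite order in the gut-marker states. It was at 1075 CPM (935 to 1230) in cluster 4 and 313 CPM (236 to 406) in cluster 6, a ratio of 3.43 (2.55 to 4.70), and at 9.17 to 21.01 CPM in clusters 1, 3, 5 and 7. Clusters 4 and 6 held 30.3% of the epithelial-like cells and 19.2% of their UMIs, with 93.0% of the Pigr and 64.4% of the Dmbt1 UMIs. Lcn2 and Sftpd had 0 UMIs in both clusters, out of 41 and 14 UMIs in all epithelial-like cells. This allows up to 15.3 CPM in cluster 4 and 16.8 CPM in cluster 6, below the 20.9 CPM of Lcn2 but above the 7.15 CPM of Sftpd over all epithelial-like cells. Lcn2 was at 78.0 CPM in cluster 3 on 17 UMIs and 56.0 CPM in cluster 7 on 16 UMIs, of which 7 came from 1 cell. Its highest level in this tumor was 103 CPM in the stromal-like cluster 8, on 7 UMIs, with an interval that overlapped with that of cluster 3. Sftpd had 11 of its 14 UMIs in cluster 7 (38.5 CPM). Pglyrp1 was at 91.0 CPM in cluster 7 and 83.8 CPM in cluster 6, on 26 and 15 UMIs, and the intervals overlapped.

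**Figure D4:**
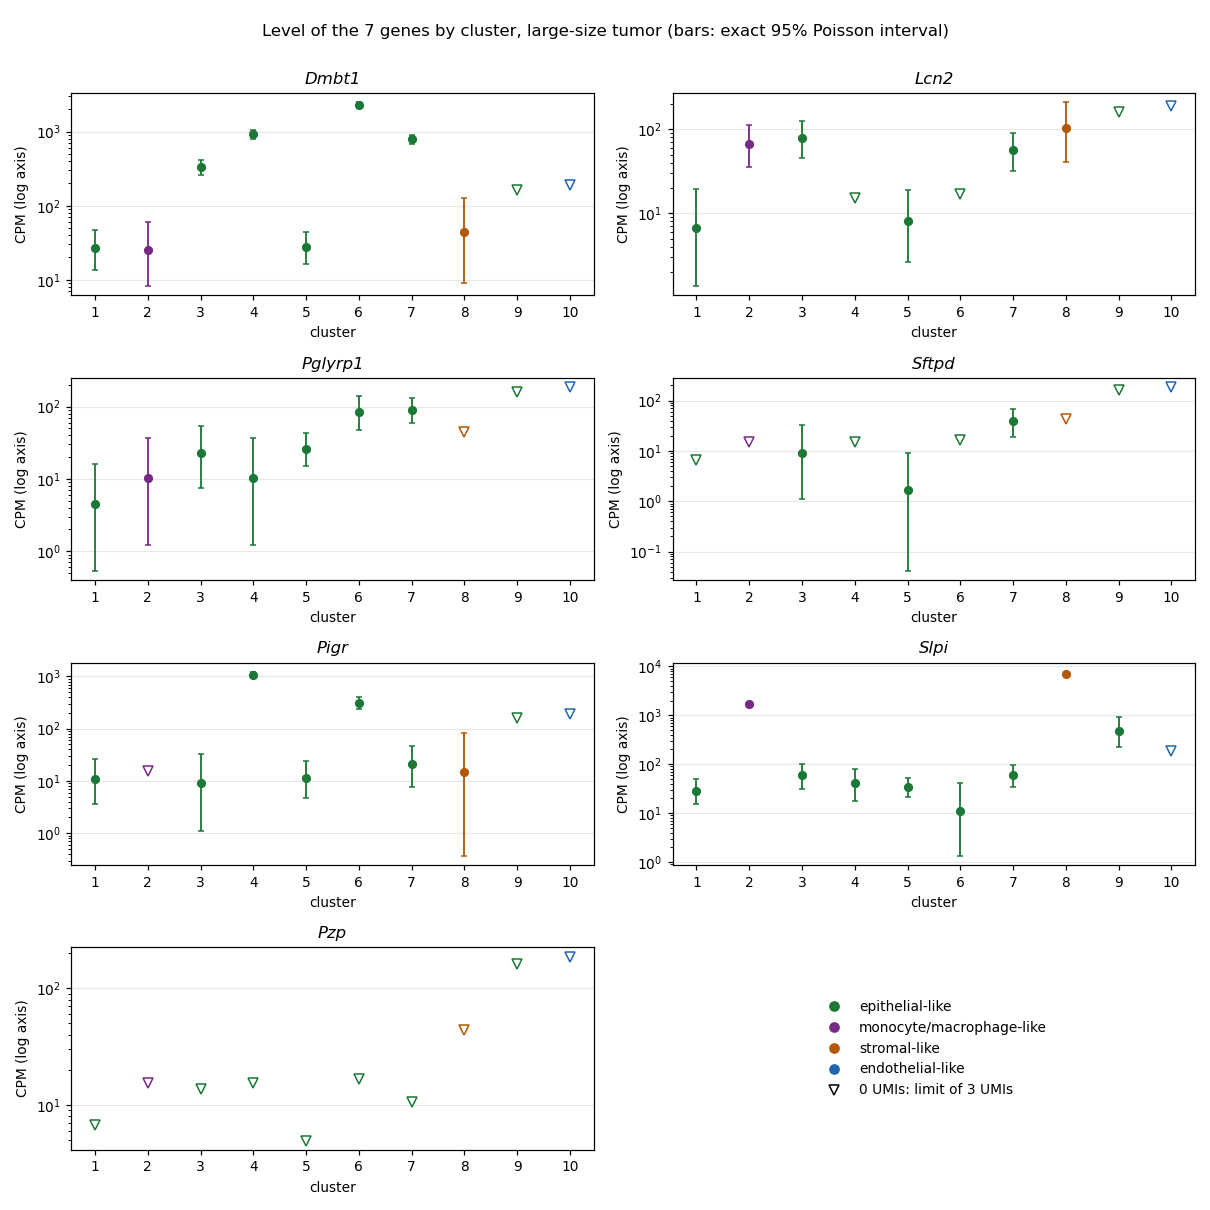
Level of each of the 7 genes in the 10 clusters of the large-size tumor, in CPM on a log axis, with exact 95% Poisson intervals as bars and open triangles at the limit of 3 UMIs where no UMI was counted. Dmbt1 was highest in cluster 6 at 2285 CPM, Pigr in cluster 4 at 1075 CPM and Slpi in the stromal-like cluster 8 at 7088 CPM, and Pzp had no UMI in any cluster.

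Against the 314 other cells of the large-size tumor, 5 of the 7 genes had enough UMIs for the comparison. Dmbt1 was at 467 CPM in epithelial-like and 28.5 CPM in other cells, a ratio of 16.4 (8.26 to 38.0). The ratio was 4.72 (1.26 to 39.8) for Pglyrp1, with 2 UMIs in the other cells, and 41.1 (7.31 to 1628) for Pigr, with 1 UMI there. Lcn2 was at 20.9 CPM in epithelial-like and 71.4 CPM in other cells, with a ratio of 0.293 (0.168 to 0.529), and Slpi was at 42.4 and 2890 CPM. So 3 genes (Dmbt1, Pglyrp1 and Pigr) were at least 2-fold higher in epithelial-like cells, where 17.2% of 4829 genes were, and 2 (Lcn2 and Slpi) at least 2-fold lower, where 7.95% were. With 10 CPM added and each cell classed from its own markers, the ratio of Pigr was 1.35 and that of Lcn2 0.548, so neither was called, and Lcn2 was also not called at a clustering resolution of 1.2 (0.513). By the same rule as in the medium-size tumor, 4 of the 4 genes with enough UMIs (Dmbt1, Pglyrp1, Pigr and Slpi) had a wide range over the epithelial-like clusters, as did 20.7% of 4365 genes. This count rested on cluster 9 (17 cells, led by Upk3a, Sprr2f and Ly6d), where 6 of the 7 genes had 0 UMIs, which allows up to 162 CPM, and Slpi was at 485 CPM on 9 UMIs. Without it, as tried after the values were seen, the count was 2.

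The macrophage-like cells of the large-size tumor (253 cells) held Lcn2 at 66.3 CPM on 13 UMIs. Of these, 10 lay in the 3 cells of the group that also had UMIs of Camp or Ngp, which encode granule proteins of neutrophils. Both Pglyrp1 UMIs of the group lay in those cells as well, and 0 of its 327 Slpi UMIs did. In the medium-size tumor 4 macrophage-like cells had Camp or Ngp, with 1 of the 108 Lcn2 UMIs and 0 of the 161 Pglyrp1 UMIs of that group. The summed granulocyte markers ran from 376 to 9155 CPM over the other clusters of the large-size tumor and from 389 to 810 CPM over its epithelial-like clusters. S100a8 and S100a9, at 3833 and 4323 CPM in the macrophage-like cells, made up most of the highest sum. Over the tumor Retnlg had 116 UMIs, Camp 106, Ngp 77, Csf3r 8 and Ly6g 0. In the medium-size tumor they ran from 42.6 to 306 CPM over the epithelial-like clusters and from 21.2 to 1387 CPM over the others, highest in the unnamed cluster 12, where Camp was at 146 CPM and Lcn2 at 158% of its epithelial-like level. No cluster took the name of granulocytes in either tumor. Slpi was at 7088 CPM in the stromal-like cluster 8 of the large-size tumor (50 cells) and 1667 CPM in its macrophage-like cells. In that stromal-like cluster 4 cells with at least 20 Slpi UMIs held 381 of the 483, all 4 with Dcn and 2 with Msln, and without the single richest cell the level was 3951 CPM.

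Between the tumors, 6 of the 7 genes were lower in the epithelial-like cells of the large-size tumor and Pigr was higher. The median over 7634 genes was a ratio of 0.921 (0.953 after TMM scaling), so the ratios stand against this shift. Pglyrp1 was at 1524 CPM in the medium-size and 33.7 CPM in the large-size tumor, a ratio of 0.0221 (0.0171 to 0.0281). The ratio was 0.0465 (0.0333 to 0.0631) for Lcn2, 0.107 (0.0585 to 0.181) for Sftpd, 0.405 (0.321 to 0.504) for Slpi and 0.418 (0.391 to 0.447) for Dmbt1. Pzp, at 14.9 CPM in the medium-size tumor, had 0 UMIs in the large-size tumor and was at least 9.71-fold lower there. Pigr was at 66.1 and 147 CPM, a ratio of 2.22 (1.94 to 2.52). By the 2-fold rule 6 genes were lower, where 9.04% of genes were, and 1 was higher, where 3.21% were. With 10 CPM added, Slpi missed the rule when clusters with few epithelial markers were left out (0.550), and Pigr missed it with cells classed singly (1.88). The value of Slpi rested on few cells. Of its 1894 UMIs in medium-size epithelial-like cells, 770 lay in the 11 cells with at least 20, and the large-size tumor had 0 such epithelial-like cells. Without them, as tried after the values were seen, Slpi was at 62.5 and 42.4 CPM, a ratio of 0.678, which was not called, and 5 genes were lower. There was 1 tumor per size and hence no error between replicates, and size cannot be told apart from the tumor itself, the library and the mix of cells.

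The mix of cells moved with the result for Pigr. Clusters 4 and 6 of the large-size tumor carried markers of enterocytes and goblet cells, and whether they are carcinoma or gut epithelium was not tested. Without them, as tried after the values were seen, Pigr was at 12.6 CPM, and its ratio to the medium-size tumor was 0.191 (0.116 to 0.296) in place of 2.22. Dmbt1 went to a ratio of 0.184 (0.164 to 0.205), while Pglyrp1 at 0.0203, Lcn2 at 0.0575, Sftpd at 0.133 and Slpi at 0.440 moved little. Pzp was at least 6.34-fold lower by its interval.

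**Figure D5:**
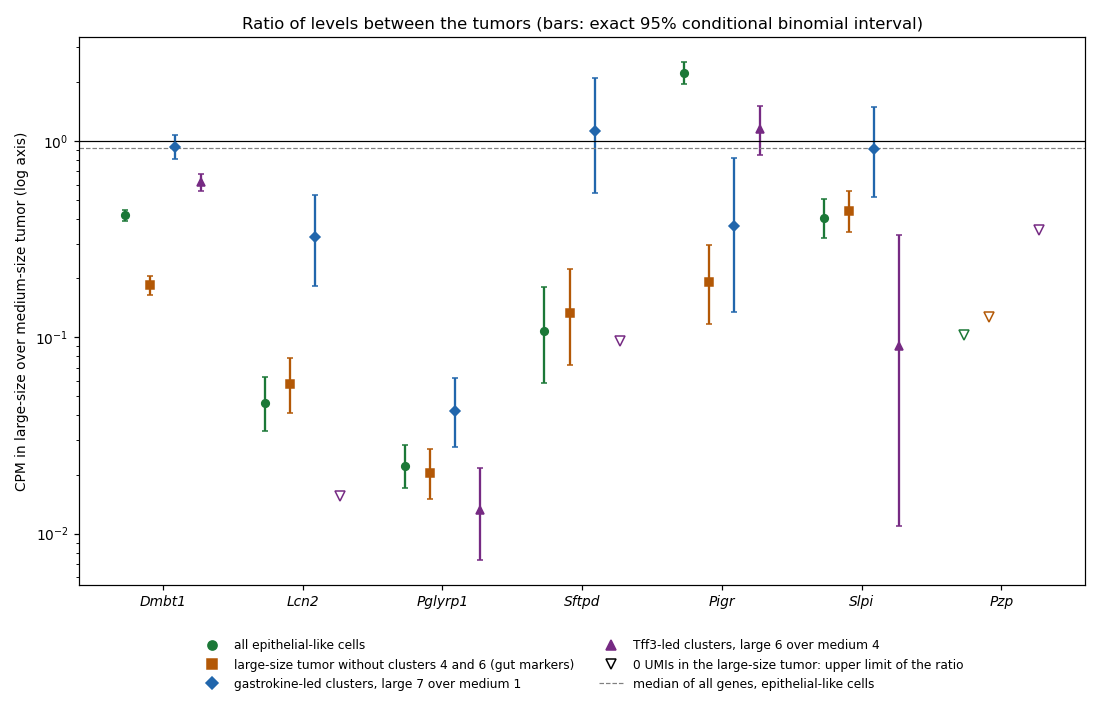
Ratio of the CPM in the large-size to that in the medium-size tumor for each gene on a log axis, with exact 95% conditional binomial intervals, over all epithelial-like cells, with large-size clusters 4 and 6 left out, and for 2 pairs of matched clusters. Open triangles are upper limits where the large-size tumor had 0 UMIs. Pigr lies above 1 over all epithelial-like cells (2.22) and below 1 without clusters 4 and 6 (0.191), and Pglyrp1 lies below 0.05 in all 4 comparisons.

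States of the large-size tumor were set beside those of the medium-size tumor with the profile most like theirs over 1349 genes. Only pairs in which the choice was mutual were used. In the gastrokine-led pair (large-size cluster 7, medium-size cluster 1, Pearson's r 0.419) Dmbt1 had a ratio of 0.932 (0.809 to 1.07), Sftpd 1.12 (0.543 to 2.09) and Slpi 0.907 (0.518 to 1.49), so the intervals included 1. Without its 2 cells with at least 20 Slpi UMIs, medium-size cluster 1 went from 65.6 to 41.4 CPM of Slpi. Large-size cluster 7, with 0 such cells, was at 59.5 CPM. Pglyrp1 in the same pair was at 0.0421 (0.0275 to 0.0618), Lcn2 at 0.324 (0.184 to 0.531) and Pigr at 0.370 (0.134 to 0.823). In the Tff3-led pair (large-size cluster 6, medium-size cluster 4, r 0.566) Pigr was at 1.15 (0.852 to 1.52) and Dmbt1 at 0.615 (0.555 to 0.680). Pglyrp1 was at 0.0132 (0.00736 to 0.0217) there, and Lcn2, with 0 UMIs, was at least 52.1-fold lower by its interval. In the cycling pair (clusters 5 and 3, r 0.572) Dmbt1 was at 0.104 and Pglyrp1 at 0.0373, and in the pair with few epithelial markers (clusters 1 and 7, r 0.663) they were at 0.134 and 0.0196. The loosest match was large-size cluster 4 with medium-size cluster 8 (r 0.350), where Pigr was at 3.10 (2.62 to 3.66) and Dmbt1 at 0.137. Lcn2 was at least 142-fold lower there by its interval. Pglyrp1 was thus below 0.05 in each of the 5 pairs, while Dmbt1 ranged from 0.104 to 0.932.

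Because the large-size tumor was shallower, the shares of cells were compared with all cells thinned to 500 UMIs. In the medium-size and the large-size tumor, Pglyrp1 was then seen in 35.6% and 1.64% of epithelial-like cells, Lcn2 in 13.0% and 1.07%, Dmbt1 in 27.2% and 17.6% and Sftpd in 3.60% and 0.410%. Slpi was seen in 4.25% and 2.13% and Pigr in 4.55% and 8.78%. Pzp was seen in 1.03% of the cells of the medium-size tumor and in 0 of the 1219 of the large-size tumor. The order of the tumors was the same as by CPM for each gene. Without thinning the shares in the large-size tumor were 26.3% for Dmbt1, 14.7% for Pigr, 5.66% for Slpi, 4.92% for Pglyrp1 and 2.13% for Lcn2.

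Other genes of mucosal defense were read from 6 lists with 74 genes, by the same 2-fold rule. Of all genes, 3.78% were higher and 7.6% lower in medium-size epithelial-like cells, with a median ratio of 1.08, and 17.2% were higher and 7.95% lower in those of the large-size tumor, with a median of 1.195. Of 20 antimicrobial proteins and enzymes in the tables, 11 had enough UMIs in the medium-size tumor, of which 0 were at least 2-fold higher in epithelial-like cells and 4 (Lyz1, Lyz2, S100a8 and S100a9) at least 2-fold lower, with a median ratio of 0.856 against 1.08 for all genes. The C-type lectins Reg3b and Reg3g followed the Tff3-led state, with 2063 and 1436 CPM in cluster 4 and 1422 and 1132 CPM in cluster 8. Ltf, the iron-binding lactoferrin, was at 408 CPM in cluster 8 and 277 CPM in cluster 1. Duox2 and its partner Duoxa2, which make hydrogen peroxide at the cell surface, were at 170 and 173 CPM in cluster 8 and at 10.3 and 14.7 CPM in cluster 2. In the large-size tumor 2 of 8 such genes were higher (Reg3g and Zg16) and 4 lower (Lyz2, Camp, S100a8 and S100a9), with a median ratio of 0.480 against 1.195 for all genes. Reg3b was at 2542 CPM in cluster 6 there and at 1820 CPM in the stromal-like cluster 8, and its levels in epithelial-like and other cells were 463 and 460.2 CPM.

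Among 9 antiproteases and their targets, 4 had enough UMIs in the medium-size tumor. Wfdc2 and Wfdc18, of the same whey acidic protein family as Slpi, were at least 2-fold higher in epithelial-like cells. Wfdc2 was at 2457 CPM against 548 CPM and at 1426 CPM or more in 7 of the 8 epithelial-like clusters, and it was lowest in cluster 7. Prtn3, a serine protease of myeloid cells, was at least 2-fold lower, with 480 and 339 CPM in the macrophage clusters that were rich in Slpi. Elane and Ctsg, the proteases that Slpi is best known to block, had 1 UMI each in the medium-size tumor and 0 in the large-size tumor. Wfdc2 and Wfdc18 were also higher in the epithelial-like cells of the large-size tumor (2 of 3 genes). The median ratio of the list was 2.69 in the medium-size and 5.32 in the large-size tumor, against 1.08 and 1.195 for all genes.

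Receptors and cargo of the members were read next. Of the list of receptors and cargo, 3 genes had enough UMIs in the medium-size tumor and 2 of them were at least 2-fold lower in epithelial-like cells, namely Lrp1, a receptor for protease traps such as the product of Pzp (27.7 and 140 CPM), and Fcgrt, with a median ratio of 0.307 against 1.08 for all genes. Slc22a17, a receptor of lipocalin 2, was at 1.05 CPM and Lrp2, also a receptor of it, at 0.166 CPM in epithelial-like cells. Jchain, which joins the IgA that the product of Pigr carries, had 354 UMIs, of which 344 were in epithelial-like cells (19.0 against 4.53 CPM, a ratio of 1.997 with 10 CPM added, just under the 2-fold rule), mostly in cluster 2 (76.9 CPM) and cluster 7 (45.3 CPM), where Pigr was at 4.47 and 17.4 CPM. The summed B and plasma cell markers, Jchain among them, were also highest in these clusters, at 103 and 79.98 CPM, and Mzb1, a plasma cell gene, had 223 UMIs in 30 cells of the tumor. The part of plasma cells in the Jchain values was not tested. In the large-size tumor Jchain was higher and Lrp1 lower, of 2 genes with enough UMIs, with a median ratio of 1.30. Of 10 genes of microbe recognition, 4 had enough UMIs and 3 (Tlr2, Cd14 and Colec12) were at least 2-fold lower in epithelial-like cells, with a median ratio of 0.232, where 7.6% of all genes were lower. Cd14 was at 379 CPM in cluster 8 and 1186 CPM in macrophage cluster 9. Of the 2 with enough UMIs in the large-size tumor, 2 were lower, with a median of 0.0728.

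Acute phase and complement genes sat with Slpi in the other cells. All 4 with enough UMIs in the medium-size tumor (C3, Cfb, Saa3 and Hp) were at least 2-fold lower in epithelial-like cells, with a median ratio of 0.0978, where 7.6% of all genes were lower with a median of 1.08, and so were the 2 read in the large-size tumor, C3 and Saa3, with a median of 0.0748, where 7.95% of all genes were lower. C3 was at 4008 CPM in the mesothelial-like cells and at 144 CPM in cluster 8, its highest epithelial-like state. Saa3 was at 3800 CPM in macrophage cluster 9. Of the 14 cytokines, receptors and factors with enough UMIs, Ehf and Klf5, which encode epithelial transcription factors, were at least 2-fold higher in epithelial-like cells and 6 (Il1b, Tnf, Il17ra, Nfkb1, Nfkbiz and Cebpb) at least 2-fold lower, with a median ratio of 0.550, beside 3.78% higher and 7.6% lower of all genes. Klf5 was at 517 CPM in cluster 8 and at 87.3 to 222 CPM in the other epithelial-like clusters, and Ehf at 173 CPM in cluster 8 and 130 CPM in cluster 4. Stat3 was at 185 CPM in cluster 8 and 37.5 to 102 CPM in the others. Of 10 such genes in the large-size tumor, Ehf and Klf5 were again higher and 4 lower, with a median of 0.561, beside 17.2% higher and 7.95% lower of all genes. The cytokine gene Il22 had 0 UMIs in both tumors.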

How the data were processed

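2 tumors from KPC mice were dissociated and single cells were captured with 10x Chromium 3′ v2 chemistry. Per the labels and methods the authors ran Cell Ranger, whose version is not given in the sources used here, with build mm10, and deposited whole-number UMI counts per gene and cell in 1 table per tumor. The 4 technical replicates of a tumor were pooled in its table with no map from cells to replicates, so each tumor was 1 sample. No test across tumors was possible and no p-value was computed.

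Counts were log-normalized to 10000 per cell and clustered in Seurat 5.3.0 (R 4.3.3) from 2000 variable genes and 10 principal components at a resolution of 0.8. A cluster took a cell type name when at least 3 markers were in at least 10% of its cells at 25% or more of the highest cluster, the type with the largest share of its markers giving the name, and stayed unnamed when another type also had at least 60% of its own markers. CPM, exact intervals (confidence level 95%, floor 3 UMIs) and thinned counts (2500 or 500 UMIs per cell, shallower cells left out) were computed in Python 3.11.15 with numpy 2.4.6 and scipy 1.17.1. Doublet scores came from Scrublet in scanpy 1.11.5, and TMM scaling from edgeR 4.0.16. Counts of genes past 2-fold, or past 10-fold for a wide range over clusters, used ratios with 10 CPM added to both values. They covered genes with at least 50 UMIs in the groups compared, or 200 UMIs in both tumors together. The scripts were tested on simulated data.

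The 7 genes and all lists and rules were chosen with earlier results of these data known. Genes named are the 7, those of the defense lists at 10 CPM or more in a group or set beside a member, the 5 genes most alike to each member (of those with at least 500 UMIs), the 3 leading genes of a cluster, and markers. Also named are Lgals1, lowest in rho with most members, and Mt1 and Mt2, which ran with Slpi over the other cells. Alternatives were other clustering resolutions and component numbers, members left out of the variable genes, cells classed singly, doublet-like or low-marker cells left out, another added CPM, TMM scaling, unthinned counts and other gene filters. Leaving out 17 cells of cluster 9, the gut-marker clusters, the mixed clusters, the cell richest in Slpi or the epithelial-like cells with at least 20 Slpi UMIs was chosen after seeing the data. A further allele of the strain is not reported here.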

Additional observations from a re-analysis of the deposited data

How the results depend on the processing

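No paired analysis was possible because the technical replicates that share numbers in the labels are pooled in 1 table per tumor. Over 15 settings, 288 of 310 recomputed ratios of the members kept their status by the fold rule, called or not called, and 22 changed it. Of the 288, 1 reversed from at least 2-fold higher to at least 2-fold lower. Of the counts of members, 46 of 51 stayed within 1.5 times. The reversed ratio was that of Pigr between the tumors, which went from 2.06 with 10 CPM added to 0.297 without the 2 gut-marker clusters. These clusters held 93.0% of its epithelial-like UMIs. In the medium-size tumor the count of genes higher in epithelial-like cells went from 3 to 6 at resolution 1.2, to 6 with cells classed singly, and to 5 without the mixed clusters. The count with a wide range in the large-size tumor went from 4 to 2 at resolution 0.4 and to 2 without the 17-cell cluster. The median share of epithelial-like cells with a UMI went from 13.3% to 27.7% without thinning, and the median rho from 0.281 to 0.366 on scaled raw counts, where 20 of 21 pairs were higher. The share of all genes past the rules moved as well. With 1 CPM added it was 11.5% in place of 3.78% for genes higher in medium-size epithelial-like cells, 8.49% in place of 1.57% for a wide range there, 47.9% in place of 20.7% for a wide range in the large-size tumor, and 17.3% in place of 9.04% for genes lower in the large-size tumor. Counting all genes with at least 1 UMI, the same shares were 2.38%, 0.977%, 8.12% and 3.96%, and that of genes higher in epithelial-like cells of the large-size tumor was 8.70% in place of 17.2%. The cause of the other changes was not tested. In the large-size tumor few UMIs limit Lcn2, Pglyrp1, Sftpd and Pzp to sums over many cells.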
